A study of Homo sapiens with 5 samples.

Results

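FOXM1 peaks of A549, a widely used human lung adenocarcinoma cell line, were divided by whether they overlapped a peak of DNA carried in extracellular vesicles (evDNA). The FOXM1 list came from chromatin immunoprecipitation with an antibody against FOXM1 in untreated cells grown with 10% fetal bovine serum. The vesicle lists came from DNA sequenced without an antibody, from untreated cells grown without serum (control evDNA) and from cells incubated for 3 days in EBSS, a balanced salt solution without amino acids or serum (EBSS evDNA). A list from an LC3 immunoprecipitation of untreated cells was used only for comparison, and an input library was not analysed here. A FOXM1 peak was placed in the overlapping group when it shared at least 1 bp with any control or EBSS evDNA peak, so the groups were selected on the measured peak positions. Of 11195 FOXM1 peaks, 307 overlapped evDNA and 10888 did not. The share was 2.74% (95% interval 2.45 to 3.06). All 4 lists together held 63391 peaks. Each group had 1 library, so no spread between replicates could be measured and no test was made; exact Clopper-Pearson intervals of shares and normal intervals of their differences cover counting error only.

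FOXM1 is a forkhead transcription factor that drives genes of the G2 and M phases of the cell cycle. At many of these promoters it is recruited through the MuvB and B-MYB complex, which reads the cell cycle homology region (CHR), often beside CCAAT boxes bound by NF-Y, and not only through a forkhead motif. Extracellular vesicles are membrane particles that cells release, and part of their cargo can be genomic DNA. EBSS removes amino acids and growth factors and is a standard way to induce autophagy, in which LC3 is attached to membranes. The series title links FOXM1 to the choice of chromatin DNA that enters vesicles, and the overlap of both kinds of peaks addresses where they lie relative to each other.

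Promoter sequences are shown for genes whose FOXM1 promoter peak did or did not overlap evDNA, since a promoter is where a forkhead or CHR element would be sought. RefSeq windows (GRCh38.p14, the same assembly as hg38) were matched by position, and 5 windows lay under overlapping FOXM1 peaks and 57 under other FOXM1 peaks. The 250 bases before the transcription start are printed 5′ to 3′ for PGK1 (chrX:78103998-78104247, plus strand), a glycolytic kinase with the strongest overlapping peak among these windows; for EIF2S3B (chr12:10505640-10505889, plus strand), an intronless copy of a translation initiation factor gene and the other protein-coding gene under an overlapping peak; and for 3 genes whose FOXM1 promoter peaks overlapped no evDNA. These are PLK1 (chr16:23678639-23678888, plus strand), a mitotic kinase, CDK1 (chr10:60778081-60778330, plus strand), the kinase that starts mitosis, and VIM (chr10:17227991-17228240, plus strand), an intermediate filament gene of mesenchymal cells. Capitals mark the forkhead motifs TGTTTAC and TGTTTGC, the CHR motifs TTTGAA and TTCGAA, and CCAAT, searched on both strands.
PGK1: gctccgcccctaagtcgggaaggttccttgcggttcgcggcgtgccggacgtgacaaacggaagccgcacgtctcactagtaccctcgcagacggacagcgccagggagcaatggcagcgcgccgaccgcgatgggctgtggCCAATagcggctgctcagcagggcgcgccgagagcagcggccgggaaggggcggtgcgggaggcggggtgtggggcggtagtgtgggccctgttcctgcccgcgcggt
EIF2S3B: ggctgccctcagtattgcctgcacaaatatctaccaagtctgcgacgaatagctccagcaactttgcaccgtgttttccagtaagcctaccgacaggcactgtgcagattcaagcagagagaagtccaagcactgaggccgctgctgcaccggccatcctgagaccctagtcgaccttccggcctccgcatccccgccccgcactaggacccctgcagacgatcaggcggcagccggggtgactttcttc
PLK1: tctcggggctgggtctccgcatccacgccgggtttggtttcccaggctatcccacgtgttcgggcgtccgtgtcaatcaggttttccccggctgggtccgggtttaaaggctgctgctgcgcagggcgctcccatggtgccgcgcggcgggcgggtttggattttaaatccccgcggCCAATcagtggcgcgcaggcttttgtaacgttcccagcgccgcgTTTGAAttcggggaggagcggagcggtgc
CDK1: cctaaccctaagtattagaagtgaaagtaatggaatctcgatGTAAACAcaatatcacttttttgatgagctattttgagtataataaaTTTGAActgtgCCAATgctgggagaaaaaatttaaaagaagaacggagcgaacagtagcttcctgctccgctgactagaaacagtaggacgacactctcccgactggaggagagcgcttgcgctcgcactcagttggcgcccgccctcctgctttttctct
VIM: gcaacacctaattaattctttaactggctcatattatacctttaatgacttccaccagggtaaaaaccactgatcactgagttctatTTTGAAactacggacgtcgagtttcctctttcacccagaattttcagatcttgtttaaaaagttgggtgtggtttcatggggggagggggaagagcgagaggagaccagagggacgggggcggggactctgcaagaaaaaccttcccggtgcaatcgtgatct

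The PGK1 window held 1 CCAAT and neither of the other motifs, and the EIF2S3B window held none of the 3. The FOXM1 peak at EIF2S3B was weak, with a fold of 2.41 on 4 fragments and a −log10 q of 0. PLK1 held 1 CHR motif and 1 CCAAT. VIM held 1 CHR motif. The EEF1A1 window, not printed, lay under a FOXM1 peak of fold 8.58 without evDNA and held none of the 3 motifs. PLK1, CDK1 and VIM were picked by name from the 57 windows. Motif differences between the printed windows therefore depend on that choice. The CDK1 window held 1 motif of each kind, at positions 60778123 to 60778185, before the FOXM1 peak begins at 60778228. A window of another CDK1 start, which lies wholly under the peak, held no forkhead motif, 2 CHR motifs and 2 CCAAT. Among the 57 windows under other FOXM1 peaks, 7.02% held a forkhead motif, 21.1% a CHR motif and 38.6% a CCAAT. Of all 35116 windows of the same length in the table, 6.09% held a forkhead motif, 14.3% a CHR motif and 32% a CCAAT. Each interval of the 57 windows contained the share of all windows: 1.95 to 17% for forkhead, 11.4 to 33.9% for CHR and 26 to 52.4% for CCAAT. The 5 windows under overlapping peaks were too few for a share to be read.

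The value of a peak in these lists is the authors' fold of fragments at the summit over the local background. Summit fragments and background were both recovered from the fold and the p-value. By an estimate from the recovered background, the FOXM1 library was the shallowest, at 0.479 of the depth of the control evDNA library. The estimate was 0.762 for LC3 and 1.01 for EBSS evDNA. It rests on the background of each list, whose control was not known here. Median summits held 5 fragments in FOXM1, 8 in LC3, 8 in EBSS evDNA and 9 in control evDNA. Only 221 FOXM1 peaks, or 1.97%, passed the authors' q of 0.05. The CDKN2A and CDKN2B locus, which A549 is known to have lost, held no peak of FOXM1, LC3 or EBSS evDNA and 1 control evDNA peak in CDKN2A. The lists are too sparse for a locus of this size to check the cell line.

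Control evDNA was met by 229 FOXM1 peaks, or 2.05%, and EBSS evDNA by 153, or 1.37%. Both lists were met by 75 peaks, control evDNA only by 154 and EBSS evDNA only by 78. Control evDNA peaks cover 0.333% and EBSS evDNA peaks 0.168% of the length of chromosomes 1 to 22 and X, and both together 0.485%, so the control list is the larger target. The overlap had a median length of 260 bp and took up a median of 66.2% of the FOXM1 peak. In 228 of the 307 pairs it reached 50% of the shorter peak, and in 31 it was 50 bp or less. Just inside the threshold, peaks near AC034195.1 and in an intron of CDK14 shared 1 bp with evDNA, and a peak in an intron of IQCJ-SCHIP1 shared 4 bp. Just outside it, gaps were 2 bp near RN7SL58P, 4 bp near AC078950.1 and 5 bp in an intron of PPM1E.

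Summits of FOXM1 and evDNA peaks lay close together more often than a little further away. Within 100 bp of a FOXM1 summit, 93 FOXM1 peaks had a control evDNA summit and 91 an EBSS evDNA summit. Between 1000 and 3000 bp, the count per 100 bp of distance was 24.5 for control evDNA and 13.2 for EBSS evDNA. A part of the excess lay in 2 kinds of region that are defined here. Gene-free peaks lie more than 500 kb from any protein-coding gene, on unplaced scaffolds or on the mitochondrial genome, and high-background peaks have a recovered background of 10 fragments or more. Outside both, the counts within 100 bp were 50 for control and 41 for EBSS evDNA, against 21 and 10.8 per 100 bp between 1000 and 3000 bp.

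**Figure D1:**
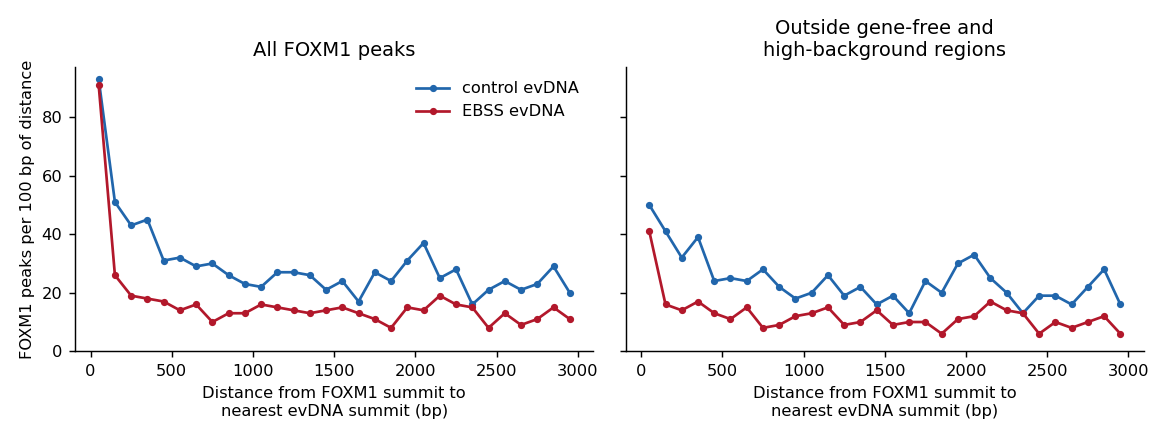
Number of FOXM1 peaks in each 100 bp bin of distance (x axis, bp) between the FOXM1 summit and the nearest evDNA summit, for control evDNA (blue) and EBSS evDNA (red), over all peaks (left) and outside gene-free and high-background regions (right). The first bin holds 93 and 91 peaks on the left and 50 and 41 on the right; further out the counts level off.

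Most overlapping peaks were weak. The median fold was 2.93 (quartiles 2.41 and 3.37) in the overlapping group and 2.89 (2.69 and 3.37) in the other group. The summit held at most 7 fragments in 205 of the 307 overlapping peaks, or 66.8%, and in 10077 of the others, or 92.6%. The share of FOXM1 peaks that overlapped evDNA was 3.44% at folds under 2.5, 1.93% at folds from 2.5 to 3 and 4.26% from 4 to 5. From 5 to 10 it was 6% (1.25 to 16.5), or 3 of 50 peaks. At folds of 10 or more, which 17 FOXM1 peaks or 0.152% reached, it was 29.4% (10.3 to 56), or 5 peaks. The median FOXM1 peak width was 318 bp at folds under 2.5 and 881 bp at 10 or more. Wider peaks can meet others more easily, and the part of width was not tested. Peaks that passed the q of 0.05 were 64 of 307 (20.8%) in the overlapping group and 157 of 10888 (1.44%) in the other. Outside gene-free and high-background regions they were 15 of 212 (7.08%) and 97 of 9377 (1.03%). Among the 221 peaks past the q, the median fold was 2.41 in the overlapping and 4.81 in the other group. The ratio was 0.501, against 1.01 (1 to 1.09) over all peaks. Of these 221 peaks, 29% (23.1 to 35.4) overlapped evDNA, and 49 of the 64 that did lay in high-background or gene-free places.

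All 5 overlapping peaks with a fold of 10 or more met EBSS evDNA, and 1 met control evDNA. FOXM1 itself carried 3 of them. The strongest peak of the FOXM1 list, at chr12:2858423-2859850 at the 3′ end of the FOXM1 gene and assigned to the neighbouring ITFG2, had a fold of 182 and 499 fragments. An EBSS evDNA peak of fold 6.02 and a control evDNA peak of fold 2.03 lay on it. The peak at chr12:2873789-2874682 had a fold of 116 and 380 fragments, and the EBSS evDNA peak there had a fold of 6.77. Another peak of the gene, at chr12:2864158-2864730, had a fold of 20.5 and met an EBSS evDNA peak of fold 2.11. The other 4 FOXM1 peaks of the gene had folds of 3.65, 10.5, 4.31 and 16.4 and lay 1428 to 3627 bp from the nearest evDNA peak. The last of these spans the start of FOXM1 and adjoins RHNO1 and TULP3. EBSS evDNA thus lay on 3 of the 7 FOXM1 peaks of the gene, the 3 strongest, and control evDNA on the strongest alone.

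The promoter of PGK1, at chrX:78103668-78104483, had a FOXM1 fold of 22.6 on 46 fragments and an EBSS evDNA fold of 8.84, with no control evDNA peak. An intron of TBC1D5, a regulator of retromer and autophagy, had a FOXM1 fold of 24.5 on 50 fragments at chr3:17401795-17402425 and an EBSS evDNA fold of 3.84. LC3 peaks lay on the 2 strongest FOXM1 gene peaks and on the PGK1 peak, and not on the TBC1D5 peak. The PGK1 promoter is widely used in expression vectors, and 4 of 6 genes with parts common in such vectors held a FOXM1 peak, against 12.8% of all protein-coding genes. Those genes were listed with earlier results of these data known, so the 4 of 6 depends on that choice. The part of introduced DNA in these peaks was not tested. Next in fold among the overlapping peaks came a gene-free place near AC244258.1 on chromosome 6, with 6.74 for FOXM1 and 6.64 for EBSS evDNA, and a high-background place near DUX4L20 on chromosome 10, with 5.57 for FOXM1, 7.8 for control and 8.84 for EBSS evDNA.

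The 10 strongest FOXM1 peaks that met no evDNA all lay at promoters, in their flanks or in exons or UTRs. MAP1LC3B2, an LC3 gene, had a fold of 74.3 at chr12:116575759-116576445, 38 kb from the nearest evDNA peak. The VIM promoter had a fold of 62 at chr10:17226615-17228481, 32.6 kb away. HBB, the beta-globin gene, had a fold of 30.2 and lay 147 kb from evDNA. CARM1, an arginine methyltransferase, had folds of 15.7 and 12.9 at 2 promoters, 168 and 120 kb away. GH1, the growth hormone gene, had a fold of 14.4, CDH1, the epithelial cadherin, of 14, and MAP1LC3B of 13, at 34.8, 84 and 97.3 kb. PHF2, a histone demethylase, had a fold of 10.9 in an exon or UTR, 975 bp from the nearest evDNA peak. Among the 12 such peaks of fold 10 or more the median distance was 40.8 kb, and 1 lay within 1 kb.

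**Figure D2:**
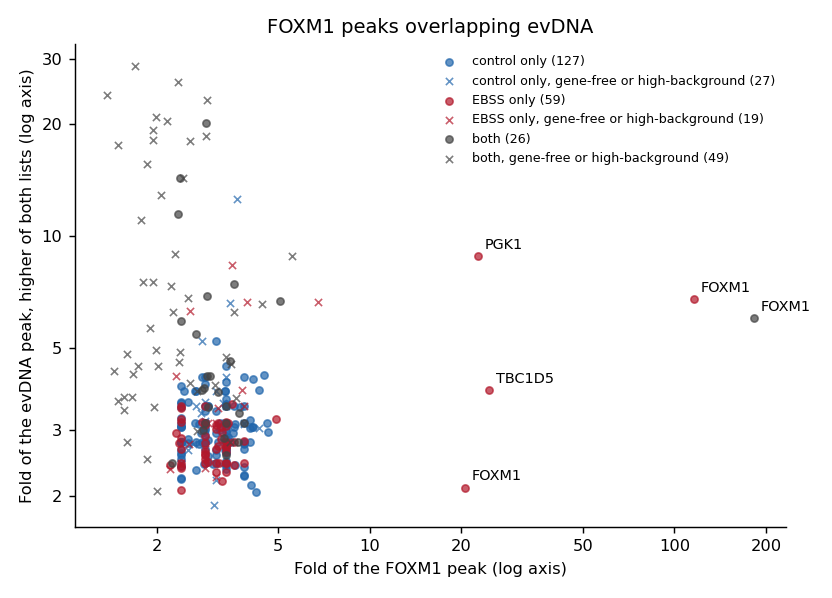
Fold of each of the 307 overlapping FOXM1 peaks (x, log axis) against the fold of the evDNA peak on it (y, log axis, the higher where both lists had one); color gives the evDNA list and crosses mark gene-free or high-background places. The 3 peaks of FOXM1, with those of PGK1 and TBC1D5, stand right of fold 10, while crosses of high evDNA fold lie at FOXM1 folds near 2.

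Seen from the vesicle side, strong evDNA peaks more often lay on a FOXM1 peak than weak ones. Of control evDNA peaks with a fold under 2.5, 0.508% lay on a FOXM1 peak, against 2.05% at folds of 4 to 5, 7.04% at 5 to 10 and 29.8% (18.4 to 43.4) at 10 or more, 17 of 57 peaks. EBSS evDNA gave 0.789%, 4%, 9.01% and 26.6% (16.3 to 39.1) in the same bins, with 17 of 64 in the highest. For evDNA peaks, high background was set by the background of the evDNA peak itself. Outside gene-free and high-background regions so defined, the highest bin held 4 of 26 control peaks (15.4%, interval 4.36 to 34.9) and 3 of 23 EBSS peaks (13%, 2.78 to 33.6). A place near LINC01662 (chr22:18730408-18730737) counted among them in both lists, although its FOXM1 background was 25.8 fragments. The others were at REXO1L11P, USP17L6P and GAGE1 in control evDNA and at REXO1L11P and USP17L6P in EBSS evDNA. These names belong to the multicopy families described below, where single positions are uncertain. evDNA peaks on a FOXM1 peak passed the q of 0.05 in 40.3% of cases for control and 46.1% for EBSS, against 13.1% and 9.4% of the peaks elsewhere. Outside gene-free and high-background regions the shares were 24% against 11.7% in control and 21.4% against 7.27% in EBSS evDNA. The median fold was 3.13 against 2.84 in control and 3.14 against 2.79 in EBSS evDNA over all places, and 3.06 against 2.81 and 2.86 against 2.79 outside those regions. Over all places, evDNA peaks on a FOXM1 peak were also wider, with medians of 391 against 311 bp in control and 416 against 301 bp in EBSS. The part of width in these shares was not tested.

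**Figure D3:**
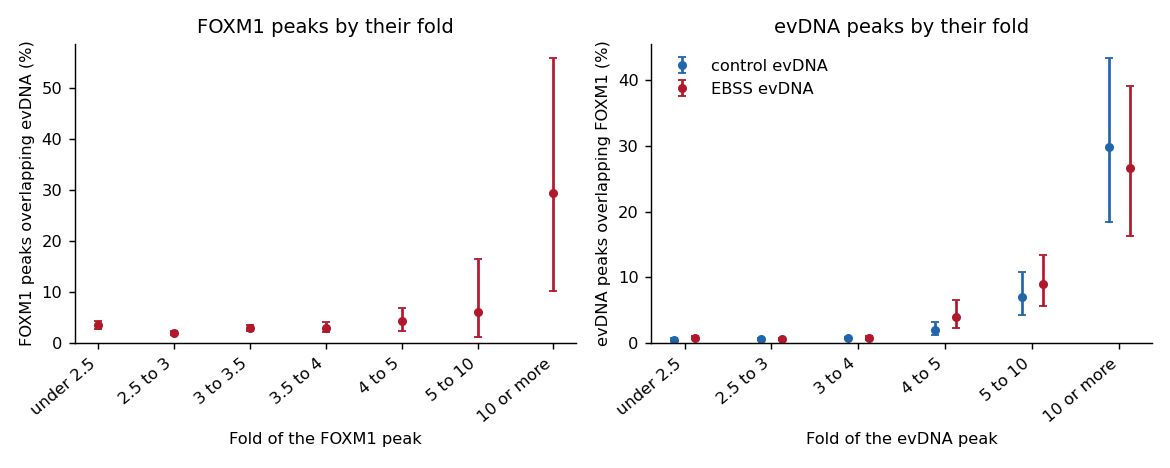
Left, share of FOXM1 peaks that overlapped an evDNA peak (y, %) by the fold of the FOXM1 peak (x). Right, share of evDNA peaks on a FOXM1 peak by the fold of the evDNA peak, for control (blue) and EBSS (red); bars are exact 95% intervals. Shares are at or under 9.01% below fold 10 and between 26.6% and 29.8% at fold 10 or more.

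Regions of high background made up the most shared part of the lists. Of the 49 high-background FOXM1 peaks, 44 overlapped evDNA (89.8%, 77.8 to 96.6), 41 of them in both evDNA lists. Their median summit held 212 fragments over a background of 106, a fold of 1.99, while the median evDNA fold there was 6.35 in control and 6.03 in EBSS. Each fold rests on the background of its own list, whose control was not known here, so folds of different lists have no common scale. The ANKRD26P1 pseudogene on chromosome 16 was the nearest gene of 7 overlapping high-background peaks, with up to 546 fragments, and SNX18P25 on chromosome 4 of 4. Others lay near LINC01691 on chromosome 1, at the DUX4 copies of chromosomes 3, 4, 10 and Y, on a scaffold (GL000225.1, 4 peaks) and on the mitochondrial genome, where 1 FOXM1 peak of 16438 bp held 571 fragments. Gene-free or high-background places held 95 of the 307 overlapping peaks (30.9%) and 1511 of the others (13.9%), a difference of 17.1 percentage points (11.9 to 22.3). It was 30.5 points (22.6 to 38.4) against EBSS evDNA alone and 38.3 (25.5 to 51.2) among FOXM1 peaks that passed the q of 0.05. The share was 17.5% of the peaks met by control evDNA only and 24.4% of those met by EBSS evDNA only, against 65.3% of those met by both. Taken singly, high-background places held 14.3% of the overlapping and 0.0459% of the other peaks. Gene-free places held 25.7% and 13.9%. Some peaks are of both kinds, and gene-free peaks without high background were not counted apart.

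At the 75 places in both evDNA lists, the fragments at the FOXM1 summit ranked with those of control (Spearman's rho 0.831) and of EBSS evDNA (0.886), while FOXM1 folds did not follow evDNA folds (rho -0.203 and -0.233). The folds of both evDNA lists followed each other (rho 0.92). The points share the genome's copy number and mappability, so these are descriptions. At the 26 of these places outside gene-free and high-background regions, the corresponding values were 0.617 and 0.776 for fragments and -0.287 and -0.151 for folds.

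Multicopy gene families, here genes grouped by the start of their symbol, were also frequent among the overlapping peaks. The list was drawn up with earlier results of these data known, so its shares depend on that choice. It takes in all ZNF, olfactory receptor (OR) and MUC symbols, such as ZNF518A, so not every member is a near-identical copy. Peaks assigned to a multicopy family were 29 of 307 (9.45%) in the overlapping group and 250 of 10888 (2.3%) in the other, and outside gene-free and high-background regions 18 of 212 (8.49%) and 212 of 9377 (2.26%). Reads from near-identical copies cannot be placed with certainty, so single positions in families of such copies are uncertain. A REXO1L11P peak on chromosome 8 had a FOXM1 fold of 2.91 with control and EBSS evDNA folds of 20.2 and 16.8. USP17L6P on chromosome 4, a copy of a deubiquitinase family, had folds of 2.38, 13.9 and 14.3 in the same order. GAGE1, a cancer-testis antigen gene on chromosome X, had 2.34, 11.5 and 9.78. These 3 were chosen after their values were seen. Other members had low evDNA folds: OR2A42 had 3.68, 2.44 and 2.79, and POTEG had 3.19 for FOXM1 and 2.44 for EBSS evDNA.

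Outside gene-free and high-background regions, few overlapping places had a strong peak in every list. The best-ranked lay near HKR1, a zinc finger gene, at chr19:37302985-37303353, with folds of 5.07 for FOXM1, 6.67 for control and 6.29 for EBSS evDNA. TAF11L6, a copy of a transcription factor subunit gene, followed at chr5:17527535-17527885 with 3.58, 7.42 and 4.2. LINC01662 had 3.47, 4.6 and 4.59, CNTNAP3P1 had 3.37, 3.48 and 3.29, and BNIP3P41 had 3.18, 3.81 and 3.81. Of these only the HKR1 and TAF11L6 peaks passed the q of 0.05 in the FOXM1 list. The others are noncoding or pseudogene loci.

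By the authors' annotation, promoter peaks (within 1 kb of a start) made up 36 of the 307 overlapping peaks (11.7%) and 647 of the others (5.94%). The difference was 5.78 percentage points (2.16 to 9.41), and 8.11 (3.32 to 12.9) outside gene-free and high-background regions. With every deposited row kept as its own peak, so that peaks with several summits counted repeatedly, it was 11.7 points (7.57 to 15.8). Later introns were less frequent, with 19.5% against 29.1%, as were first introns, with 6.51% against 10.6%. Outside gene-free and high-background regions these differences were -4.88 points (-10.9 to 1.16) and -3.25 points (-7.06 to 0.557), with intervals that include 0. Intergenic peaks made up 50.5% against 42.9%, a difference of 7.62 points (1.96 to 13.3), and of 12.7 (4.73 to 20.6) against EBSS evDNA alone. With every deposited row kept it was 4.47 points (-0.965 to 9.9). Against both evDNA lists with merged rows, the intergenic difference was 0.0241 points (-6.56 to 6.61) outside gene-free and high-background regions. Promoter flanks (7.82% and 7.25%) and exons or UTRs (3.26% and 3.52%) had intervals of the difference that included 0. Among peaks that passed the q of 0.05, 7 of 64 overlapping and 23 of 157 other peaks were at promoters, and the difference turned to -3.71 points (-13.1 to 5.73). In the whole lists, promoter peaks made up 6.1% of FOXM1, 9.28% of control evDNA and 9.39% of EBSS evDNA peaks.

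**Figure D4:**
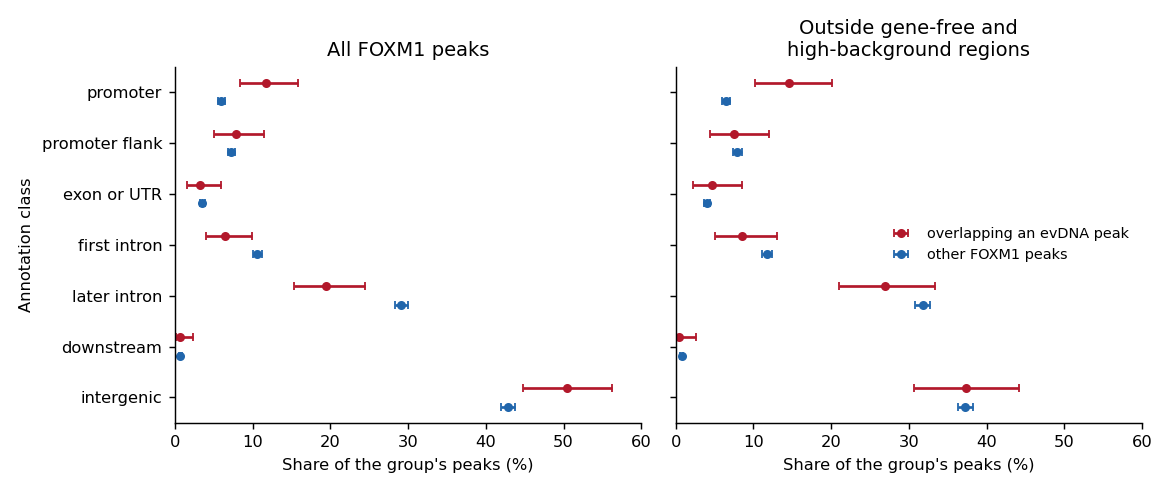
Share of each annotation class (x, %) among overlapping (red) and other (blue) FOXM1 peaks, over all peaks (left) and outside gene-free and high-background regions (right), with exact 95% intervals. Promoters lie at 11.7% against 5.94% on the left; the intergenic gap on the left, 50.5% against 42.9%, is 37.3% against 37.2% on the right.

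Read the other way, 5.27% of promoter peaks (3.72 to 7.22) overlapped evDNA, 3.21% of intergenic peaks, 1.86% of later intron peaks and 1.7% of first intron peaks. The 36 promoter peaks were led by FOXM1 and PGK1. The next protein-coding promoters had folds under 4: OR2A42, an olfactory receptor gene, at 3.68; FTMT, mitochondrial ferritin, at 3.59; TAF11L6 at 3.58; TTC6 at 3.43; IPO7, a nuclear import receptor, at 3.37; CHST6, a corneal keratan sulfotransferase, at 3.28; POTEG at 3.19; and SPRR2E, a cornified envelope gene, at 2.81. Of these 8, TAF11L6 alone passed the q of 0.05 in the FOXM1 list. Of the 38 FOXM1 and G2/M genes described below, FOXM1 was the only member with an overlapping peak of the promoter class. Those FOXM1 peaks lay inside the gene. The FOXM1 peak that spans the start of the gene lay 2298 bp from the nearest evDNA peak. Noncoding RNAs and pseudogenes, such as DUXAP10, EEF1A1P17 and AK4P1 within NF1, were among the others.

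Away from promoters, the strongest overlapping peaks outside gene-free and high-background regions apart from FOXM1 and TBC1D5 had folds from 3.14 to 5.07. In promoter flanks they were at the pseudogene ARHGAP42P5 (4.48), NPIPA1 (4.14), RERE, a corepressor (3.85), and CLECL1 (3.85). In exons or UTRs they were at THBS4, a matrix thrombospondin (4.05), LINC02388 (4.03), CNTNAP3 (3.85), DCDC1 (3.14) and NF1P6 (3.14). First intron peaks included ADH4, an alcohol dehydrogenase (3.85), SELENOP, a selenium carrier (3.71), RABGAP1L (3.49) and HMGN1P13 (3.37). Later introns followed TBC1D5 with CNTN4, a neuronal adhesion protein (4.6), PROK2 (4.14), SEMA5A (4.07) and CDH8, a cadherin (3.85). Intergenic peaks lay near HKR1 (5.07), MIR4477A (4.93), TFEC (4.64), AC108103.1 (4.33) and NENFP3 (4.22).

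Chromosomes differed in the share of their FOXM1 peaks that overlapped evDNA. Chromosome 5 held 61 of its 1081 peaks in the overlapping group (5.64%, 4.34 to 7.19). It supplied 19.9% of all overlapping and 9.37% of other peaks, a difference of 10.5 percentage points (6 to 15). Outside gene-free and high-background regions the share on chromosome 5 was 5.33%, and the difference between groups was 13.8 points (8.12 to 19.5). Chromosome 22 reached 12.3% on 57 peaks, chromosome 20 7.2%, chromosome 16 6.62% and chromosome 17 5.68%. In these 4 chromosomes, 4 of 7, 11 of 18, 12 of 18 and 6 of 10 overlapping peaks were gene-free or high-background, against 12 of 61 on chromosome 5. The lowest shares were 0.533% on chromosome 6, 0.535% on chromosome 13, 0.694% on chromosome 15 and 0.827% on chromosome 7. All 3 peaks on Y, 8 of 24 on unplaced scaffolds and the mitochondrial peak also overlapped evDNA.

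**Figure D5:**
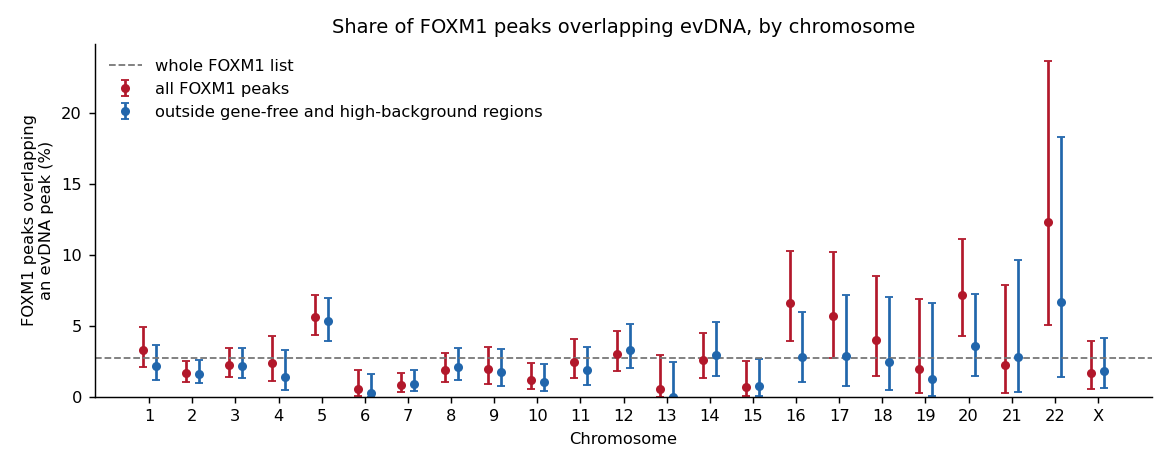
Share of FOXM1 peaks that overlapped an evDNA peak (y, %) for each chromosome (x), over all peaks (red) and outside gene-free and high-background regions (blue), with exact 95% intervals; the dashed line is the share of the whole list, 2.74%. Chromosome 5 stands at 5.64% and 5.33%, above the line with both intervals.

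On chromosome 5 the share was highest between 10 and 30 Mb, a stretch chosen after its values were seen, which held 28 of the 61 overlapping peaks. There 28 of 162 FOXM1 peaks overlapped evDNA (17.3%, 11.8 to 24), against 33 of 919 (3.59%, 2.48 to 5.01) on the rest of the chromosome and 2.43% elsewhere. Of the 28, 20 met control evDNA only, 6 EBSS evDNA only and 2 both. The highest fold was 4.33 and the median 3.14, and 18 were intergenic. The window from 20 to 30 Mb held 836 control evDNA peaks and 274 EBSS evDNA peaks, the highest of the 19 windows for both lists, so the stretch is also dense in evDNA peaks. Chromosome 5 had 1.22% of its length in evDNA peaks, the highest of the 23 chromosomes. Across chromosomes 1 to 22 and X, the share overlapping and the share of length in evDNA peaks had a Pearson's r of 0.017, and of 0.276 outside gene-free and high-background regions (n = 23 chromosomes of the same libraries). Against EBSS evDNA alone, the difference of chromosome 5 between groups was 3.46 points (-1.91 to 8.83), and among FOXM1 peaks past the q of 0.05 it was 1.5 (-4.36 to 7.36).

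The 10888 FOXM1 peaks without evDNA had a median distance of 25.8 kb to the nearest evDNA peak, with quartiles of 9.34 and 67.8 kb, and of 75.4 kb where only EBSS evDNA was counted. Of these, 369 (3.39%) lay within 1 kb and 17.8% over 100 kb away. By class, the median was 17.4 kb for the 77 downstream peaks, 19.6 kb for promoter flanks, 23.7 kb for promoters, 25.4 kb for first introns, 25.2 kb for later introns, 26.5 kb for exons or UTRs and 28.5 kb for intergenic peaks. Chromosomes spread wider than classes. The median was 11.1 kb on chromosome 5, 15.7 kb on chromosome 20 and 16.9 kb on chromosome 21, but 102 kb on chromosome 4 and 399 kb on chromosome X, where the farthest peak lay 8.77 Mb from evDNA. Chromosomes 4 and X had 0.149% and 0.16% of their length in evDNA peaks. Other peaks that passed the q of 0.05 lay farther away, at a median of 41.8 kb, than those that did not, at 25.6 kb.

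Over whole genes with 3 kb on each side, 2557 of 20037 protein-coding genes held a FOXM1 peak and 96 (0.479%) an overlapping one. A FOXM1 and an evDNA peak occurred together in 1837 genes, but in 1741 of them not at the same place. Genes with an overlapping peak had a median length of 224 kb, those with other FOXM1 peaks only 131 kb, those with a FOXM1 and an evDNA peak at different places 179 kb, and all genes 24.1 kb. Of the 69 genes over 1000 kb, 10 (14.5%) held an overlapping peak, and 2.13% of their FOXM1 peaks overlapped, against 2.25% in all genes. CDH12, a neuronal cadherin gene on chromosome 5, held 3 overlapping FOXM1 peaks at folds of 2.89, 2.41 and 2.41, each on 4 or 5 fragments. FOXM1 held 3, and CNTN4, DLG2 and LRRTM4 were among those with 2.

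Of 38 FOXM1 and G2/M genes, 5 held a FOXM1 peak and FOXM1 alone an overlapping one. PLK1 had promoter-class peaks of fold 6.87 (chr16:23678705-23679352) and 4.35, and CDK1 a promoter peak of fold 5.97 (chr10:60778228-60780252). KIF14, a cytokinesis motor, had a fold of 3.71 and PTTG1, the securin, of 2.89. PLK1, CDK1, KIF14 and PTTG1 held no evDNA peak of either list anywhere in the gene. The list's share with an overlapping peak, 2.63%, rests on 1 gene and stands beside 0.479% of all genes.

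Of 36 autophagy genes, 10 (27.8%) held a FOXM1 peak and 3 (8.33%) an overlapping one, against 12.8% and 0.479% of all protein-coding genes. Beside TBC1D5, these were UVRAG, a subunit of the class III phosphatidylinositol kinase complex, with a fold of 3.37 on 6 fragments and an EBSS evDNA fold of 2.32, and ATG7, the enzyme that activates LC3 for conjugation, with 3.35 on 7 fragments and a control evDNA fold of 2.66. All 3 peaks lay in later introns of genes of 304 to 585 kb. Of all 704 protein-coding genes of 300 to 1000 kb, 74.3% held a FOXM1 peak and 4.4% an overlapping one. MAP1LC3B2 and MAP1LC3B held strong FOXM1 peaks and no evDNA peak. The median length of the list was 37.2 kb against 24.1 kb for all genes. The list, with TBC1D5 and MAP1LC3B2 in it, was chosen with earlier results of these data known, so its shares depend on that choice.

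Of 28 vesicle biogenesis genes, VPS37A, a subunit of ESCRT-I, held the only FOXM1 peak (fold 2.41), and none overlapped evDNA. Of 18 nuclear lamina and envelope genes, SYNE2, SYNE1 and TPR held FOXM1 peaks, at folds up to 4.33, and none overlapped. All 3 of these also held evDNA peaks, at other places. Of 24 epithelial and mesenchymal genes, VIM, CDH1, FOXA2 (fold 10.3), ZEB1 and CD44 held FOXM1 peaks, none overlapping. All 25 long genes at common fragile sites held FOXM1 peaks, 284 in all, and 5 peaks in 4 genes overlapped. These were DMD, encoding dystrophin (3.59), MACROD2 (3.38), DLG2 (3.17 and 2.41) and CSMD1 (2.89), which gives 1.76% of the list's FOXM1 peaks, against 2.25% of FOXM1 peaks in all genes. Of 6 matched genes with parts common in expression vectors, PGK1, HBB, GH1 and EEF1A1 (8.58) held FOXM1 peaks, and PGK1 alone an overlapping one. Of 1239 genes of multicopy families, 108 (8.72%) held a FOXM1 peak and 14 (1.13%) an overlapping one, against 12.8% and 0.479% of all protein-coding genes.

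LC3 peaks met evDNA more often than FOXM1 peaks, with 345 of 7801 (4.42%, 3.98 to 4.9). The difference was 1.68 percentage points (1.13 to 2.23), and outside gene-free and high-background regions the shares were 3.94% and 2.21%. Among peaks that passed the q of 0.05 the order turned, with 58 of 295 LC3 peaks (19.7%) and 64 of 221 FOXM1 peaks (29%), a difference of -9.3 points (-16.8 to -1.79). Of FOXM1 peaks past the q, 49 of 109 (45%) overlapped evDNA in gene-free or high-background places and 15 of 112 (13.4%) outside them. Such places held 14.3% of the whole FOXM1 list and 4.4% of the LC3 list. The LC3 share past the q was not split in this way. The LC3 library had a higher estimated depth and larger summits, and the part of depth in these LC3 and FOXM1 differences was not tested. Against EBSS evDNA alone the difference was 0.518 points (0.147 to 0.888). Promoter peaks were met at 5.27% (3.72 to 7.22) in FOXM1 and 4.31% (3.51 to 5.24) in LC3. LC3 peaks lay on 36 of the 307 overlapping FOXM1 peaks (11.7%) and on 119 of the others (1.09%), and outside gene-free and high-background regions on 18 of 212 (8.49%) and 80 of 9377 (0.853%). Which control the authors gave the peak caller for each library was not known here, and its part in this was not tested.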

How the data were processed

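The members, gene lists and comparisons were chosen with earlier results of these data known. Per the labels' protocols, chromatin was fixed in 1% formaldehyde for 10 minutes and sonicated, and reads were either single-end of 50 bp or paired-end of 150 bp, without saying which library had which. Per the submitters' processing notes, the build was hg38 and the tools included MACS3 3.0.0a6, ChIPseeker, BWA, FastQC 0.11.8 and fastp 0.20.0. The authors deposited 1 peak list per library, with a fold over local background (a linear ratio), a −log10 p-value and a −log10 q-value for each peak, called per library; headings of the p and q columns are damaged for EBSS evDNA, so these were identified by position and by the recovery below. Folds and q, the authors' values, served to rank, filter and describe peaks inside their own list. Folds of different lists were also set side by side and ranked against each other, though each rests on its own background. Lists end at a −log10 p of 2.3, with no limit on q, and read totals are unknown. List lengths and shares can depend on depth, which was not varied here. The running peak numbers have gaps: 81 numbers are absent from the FOXM1 list, 33 from LC3, 243 from EBSS evDNA and 270 from control evDNA.

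Rows with the same interval were merged to the row of highest fold (11229 FOXM1 rows gave 11195 peaks). Pileup and background were solved from the fold and the Poisson p, and 100% of peaks in each list matched within 0.01. Relative depth is the lowest background (1% quantile) per bp of the smallest peak width, relative to control evDNA. Overlap needed at least 1 bp; intervals were checked against bedtools. Chromosome length was taken as the highest coordinate of any peak or RefSeq gene. Genes were matched by symbol to RefSeq (GRCh38.p14), with peaks assigned to a gene body plus 3 kb; of 8 genes with parts common in vectors 6 matched, and the other lists matched in full. Promoter means within 1 kb of a start in the authors' annotation.

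Peaks were named by rule: the 10 overlapping and the 10 other peaks of highest fold; the 10 protein-coding genes with the strongest overlapping promoter peak; the 5 strongest overlapping peaks of each other class, and the 5 in both evDNA lists with the best worst rank, outside gene-free and high-background regions; peaks in FOXM1; the 3 smallest overlaps and gaps; the genes with most overlapping peaks; and members of each gene list. Other peaks named in the text (at REXO1L11P, USP17L6P, GAGE1, DUXAP10, EEF1A1P17, AK4P1 and in high-background places) were chosen after their values were seen. Python 3.11.15, pandas 2.3.3, numpy 2.4.6 and scipy 1.17.1 were used. Alternatives were a longer overlap, stricter peaks, single evDNA lists, other regions and unmerged rows. The input was not used here, and 1 gene named by these rules is not reported here.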

Additional observations from a re-analysis of the deposited data

How the results depend on the processing

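Each of the 8 results was recomputed under 8 other settings (7 for the difference in gene-free or high-background share). Of the 63 values, 42 kept within the interval of the reported value, 19 moved outside it and 2 turned in direction. The cause was not tested unless the alternative's own construction gives it. The share of FOXM1 peaks overlapping evDNA was 2.04% with an overlap of at least 50% of the shorter peak, 2.28% with evDNA peaks of −log10 p of at least 3, 2.21% without gene-free and high-background regions, 2.05% with control and 1.37% with EBSS evDNA only. Restricting immunoprecipitation peaks to q of at most 0.05 gave 29% for that share and turned the promoter difference to -3.71 points and the LC3 minus FOXM1 difference to -9.3 points. It also gave an intergenic difference of 13.3 points, a gene-free or high-background difference of 38.3 points, a fold ratio of 0.501, a distance of 41.8 kb and a chromosome 5 difference of 1.5 points; this leaves 221 FOXM1 peaks. EBSS evDNA alone gave 30.5 points for gene-free or high-background places, 0.518 points for LC3 minus FOXM1, 75.4 kb and 3.46 points for chromosome 5. The distance was 34.5 kb with stricter evDNA peaks and 38 kb with control evDNA only. Leaving out gene-free and high-background regions brought the intergenic difference to 0.0241 points, and keeping every deposited row brought the promoter difference to 11.7 points and the intergenic one to 4.47 points (-0.965 to 9.9). Leaving out FOXM1 peaks of fold 10 or more moved none of the 8 results outside its interval. No paired analysis was possible because each group has 1 library. Of the 307 overlapping FOXM1 peaks, 205 had summits of at most 7 fragments, and the part of depth was not tested. A place without a peak is one where none was called at this depth.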
